A study of Mus musculus with 24 samples.

Results

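Kidney was profiled on 3 arrays, 1 for each of 3 biological replicates of kidney RNA from 8-week-old male ICR mice. These were compared with 12 arrays of Brain, Heart, Liver and Testis, 3 per tissue, from mice of the same strain, sex and age. Both sets belong to a series of 24 arrays, and its 9 arrays of cell lines were not compared here. The tissues were taken whole and no treatment or transgene is given for the mice. Each array carries 60804 probes for long noncoding RNAs (lncRNAs) and mRNAs. The level of a probe is the log2 of its processed intensity minus the 75th percentile of its own array, so that a level of 0 is the brightness at that percentile. A probe was counted as detected in a tissue where each of the 3 arrays of that tissue flagged its signal as well above background.

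The kidney filters blood in its glomeruli and recovers salt, sugar, amino acids and water along the tubule. The proximal tubule does much of this work with apical transporters and brush border enzymes, and the distal tubule and collecting duct adjust calcium, acid and water. Many lncRNAs lie inside, beside or antisense to protein-coding genes, so a lncRNA probe that carries the symbol of such a gene is listed for a noncoding transcript of the locus. Where that transcript overlaps exons of the gene in the sense direction, the probe may also bind the mRNA, which was not tested. In whole tissue, fewer cells of a type and less RNA per cell cannot be told apart.

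The kidney arrays had 25978 to 27930 probes well above background, within the range of 18257 to 37393 over all 24 arrays, and 24044 probes (39.5%) were detected on all 3. Across 14538 probes well above background on every tissue array, kidney replicates correlated at 0.983 to 0.99, and no kidney array correlated above 0.876 with an array of another tissue. The number of arrays limits the precision, since each tissue has 3.

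Probes were named through the supplementary tables of the study, which cover 3478 of them (5.72%). Among these are 102 lncRNAs that the study lists as specific to kidney. That list was made from these same arrays, so high kidney levels of its members are not independent evidence. The study's lists for the other tissues required absence in kidney, so low kidney levels of their members are not independent evidence either. For 4 of its members the RefSeq window from 250 bases before to 50 bases after the gene start is shown, because it holds a site type of HNF1 or HNF4, transcription factors of kidney tubule and liver. Capitals mark GTTAAT, the core of an HNF1 site, in Gm853, Miox and Gm12678 and CAAAGTCCA, an HNF4 site, in Treh, all on the opposite strand and hence printed as the reverse complement. On GRCm38.p6 the windows are chr4:130222246-130222545 (minus strand) for Gm853, chr15:89334223-89334522 (plus) for Miox, chr4:44943483-44943782 (plus) for Gm12678 and chr9:44672983-44673282 (plus) for Treh.
Gm853: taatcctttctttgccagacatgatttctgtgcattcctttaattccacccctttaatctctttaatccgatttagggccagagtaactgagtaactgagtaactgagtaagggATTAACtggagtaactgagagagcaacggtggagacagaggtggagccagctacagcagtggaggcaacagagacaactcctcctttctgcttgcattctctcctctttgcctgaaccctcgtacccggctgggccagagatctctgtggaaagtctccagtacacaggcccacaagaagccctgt
Miox: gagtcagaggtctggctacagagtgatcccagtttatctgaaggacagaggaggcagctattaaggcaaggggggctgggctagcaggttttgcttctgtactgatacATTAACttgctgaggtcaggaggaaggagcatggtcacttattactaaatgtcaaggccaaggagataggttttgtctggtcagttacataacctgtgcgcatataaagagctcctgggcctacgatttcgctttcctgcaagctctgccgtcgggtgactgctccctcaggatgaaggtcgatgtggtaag
Gm12678: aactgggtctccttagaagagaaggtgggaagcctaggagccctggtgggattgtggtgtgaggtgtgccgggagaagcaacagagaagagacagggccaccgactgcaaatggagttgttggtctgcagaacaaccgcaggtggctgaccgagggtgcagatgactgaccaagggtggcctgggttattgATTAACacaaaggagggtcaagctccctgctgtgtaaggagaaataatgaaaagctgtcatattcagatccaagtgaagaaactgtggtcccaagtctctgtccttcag
Treh: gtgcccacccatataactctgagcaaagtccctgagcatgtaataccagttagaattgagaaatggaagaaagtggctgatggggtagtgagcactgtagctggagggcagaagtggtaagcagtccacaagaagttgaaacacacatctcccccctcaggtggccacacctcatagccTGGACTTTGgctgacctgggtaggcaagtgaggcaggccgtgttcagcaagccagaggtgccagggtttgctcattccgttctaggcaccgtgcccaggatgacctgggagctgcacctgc

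Relative to the gene start the marked letters begin at -136 in Gm853, -142 in Miox, -59 in Gm12678 and -71 in Treh. A window was found for 37 of the 48 RefSeq genes matched to a named kidney-raised transcript. On either strand GTTAAT was in the windows of 10 of the 37, against 8.24% of 27025 genes, and CAAAGTCCA was in those of 3 (Osbpl6, Ptpn22 and Treh), against 0.555%. The full HNF1 palindrome GTTAATNATTA, which contains GTTAAT, was in 0 of the 37 and in 0.155% of all genes. The promoter motifs TATAAA and CCAAT were in 6 and 13 of the 37, against 15.7% and 41.1% of all genes. These matches describe letters in the window of the gene, and the start of a noncoding isoform may lie elsewhere.

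A transcript was called kidney-raised where it was detected in kidney and at least 5-fold higher there than in each of the 4 other tissues, with an adjusted p of 0.05 or less each time (limma, Benjamini-Hochberg over all probes). This held for 718 transcripts (1.18% of those tested), or 2.99% of the probes detected in kidney. In 717 of the 718 every kidney array lay above all 12 other arrays, an order found for 4.38% of all probes. The difference from the nearest other tissue had a median of 3.57 and reached 13.71 on the log2 scale. Of the 718, 153 were well above background on no array of another tissue, and 109 were detected in all 4 other tissues as well. The 5-fold limit was applied to the fitted levels. With folds taken against the lowest signal well above background where a tissue did not detect the probe, 506 of the 718 were 5-fold or more over every tissue and 212 had at least 1 smaller bound. An alternative took the median spot signal in place of the processed signal and corrected its background with normexp, which models a spot as true signal plus background, so that the input and the correction changed together. With this normexp alternative 353 transcripts were called, 333 of them among the 718.

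Taken tissue by tissue at the same fold and adjusted p, 3520 transcripts (5.79%) were higher and 4079 (6.71%) lower in kidney than in brain, 2634 (4.33%) and 2322 (3.82%) against heart, 2072 (3.41%) and 2883 (4.74%) against liver, and 9889 (16.3%) and 7019 against testis. The nearest other tissue was liver for 385 of the raised transcripts, brain for 136, heart for 120 and testis for 77. Probes that no array of a tissue detected had a median level of -3.31 in liver, -4.68 in heart and kidney, -5.47 in brain and -6.57 in testis, and the part of this in the order of tissues was not tested. A difference from a tissue without detection is no measured fold. For such a tissue the fold is therefore given as "at least", with each of its arrays set to the lowest level that was well above background there, or to the probe's own level where that was higher.

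Gm853 had the largest difference over the nearest tissue among the named transcripts. RefSeq calls its gene on chromosome 4 Ldc1, a leucine decarboxylase. The probe of ENSMUST00000124528 read 7.21, 7.15 and 5.37 on the kidney arrays and between -6.69 and -3.01 on the other 12. Kidney replicate 3 was the lowest of the 3, and the groups did not overlap. The kidney mean of 6.58 ± 1.05 (SD, n = 3) was at least 233-fold above each tissue (largest adjusted p of the 4 comparisons 4.46e-09, limma).

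AI314278 (NR_102276), a lncRNA gene on chromosome 7, read 5.18, 5.27 and 5.17 in kidney and between -6.74 and -2.92 elsewhere. The 3 kidney arrays were nearly equal and no other array was well above background. The mean of 5.21 ± 0.05 (SD, n = 3) was at least 90.2-fold above each tissue (largest adjusted p = 4.02e-12, limma). The fitted difference from the mean of the 4 tissues was 10.18 (standard error 0.21) for AI314278 and 11.21 (standard error 0.46) for Gm853.

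**Figure D1:**
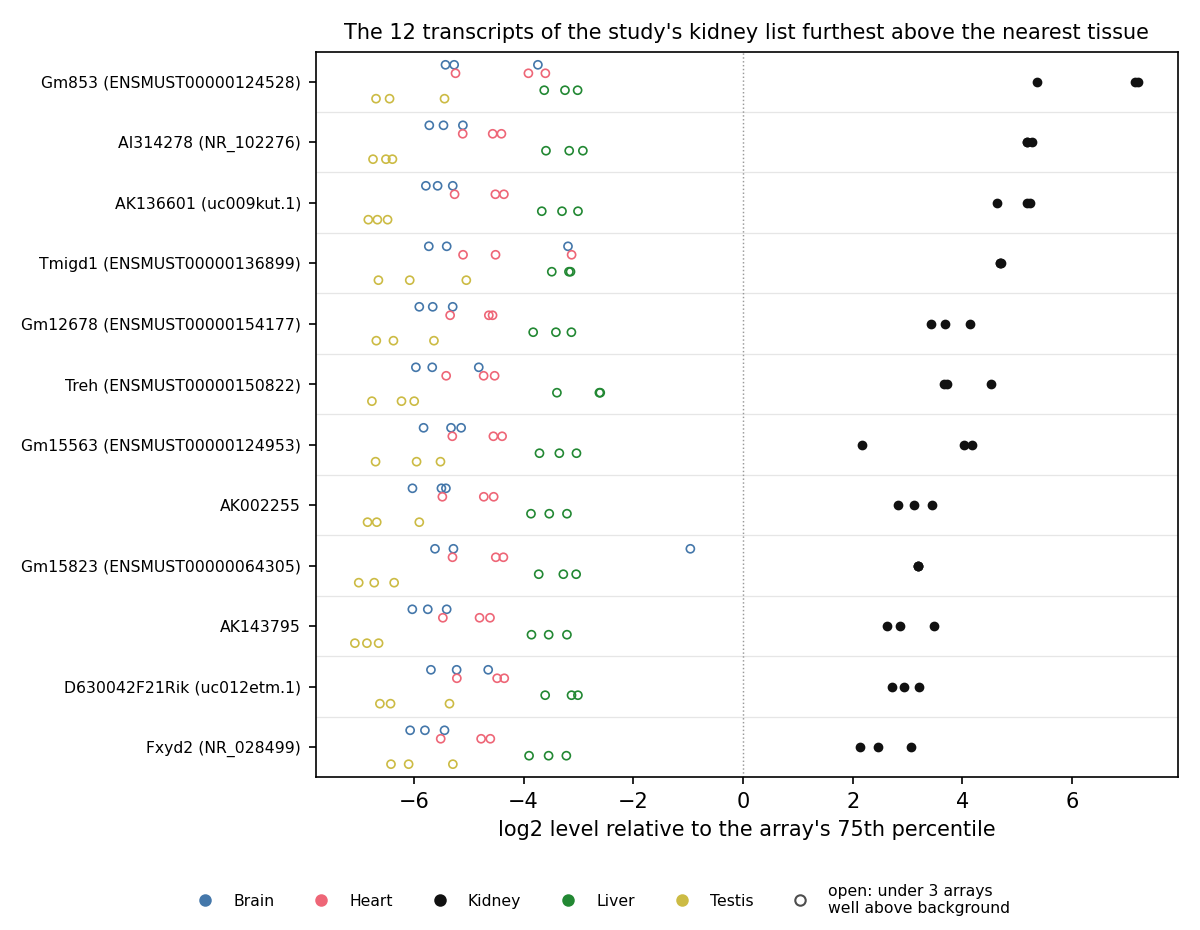
Log2 level (horizontal axis, relative to the 75th percentile of the array) of the 12 transcripts of the study's kidney list with the largest difference over the nearest tissue. Each point is 1 array, in the colour of its tissue, and is filled where the tissue detected the probe on its 3 arrays. Only kidney points are filled and all lie to the right of the other tissues, with 1 kidney array of Gm853 (5.37) and of Gm15563 (2.17) apart from the other 2.

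Other members of the kidney list showed the same separation. Tmigd1 encodes an immunoglobulin-domain membrane protein of kidney and gut epithelium, and its transcript ENSMUST00000136899 read 4.69, 4.70 and 4.69 in kidney and -3.12 or less elsewhere, with 1 brain array well above background. The level was at least 63.2-fold above each tissue (largest adjusted p = 9.11e-08, limma). Treh encodes trehalase, a brush border enzyme that splits the sugar trehalose. Its transcript ENSMUST00000150822 read 3.67, 4.52 and 3.71 in kidney and -2.60 or less elsewhere, at least 38.3-fold apart (largest adjusted p = 2.13e-09, limma).

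AK136601 read 5.24, 5.18 and 4.64 in kidney, and Gm12678 read 3.69, 4.13 and 3.42. Gm15823 read 3.19, 3.18 and 3.19, with 1 brain array well above background at -0.96. Gm15563 was uneven, with 4.02, 4.18 and 2.17. These 4 were at least 79.1-fold, 32.8-fold, 22.3-fold and 26.9-fold above each other tissue, in the order named. AK002255, AK143795 and D630042F21Rik, whose gene RefSeq calls Tmem52b, had kidney means of 3.13 ± 0.31, 2.99 ± 0.44 and 2.96 ± 0.25 (SD, n = 3) and were well above background on no other array.

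Of the 102 transcripts on the kidney list 80 were kidney-raised, against 1.18% of all probes. All 102 were higher in kidney than the mean of the 4 tissues, against 18.8% of all probes. In 100 every kidney array lay above the other 12, against 4.38% of all probes. The list was made from these same arrays, so these counts are set in large part by that choice. The 22 not called were detected in kidney and lay under 5-fold over at least 1 tissue, the smallest difference from a nearest tissue being 1.31. At the limit of 2.32 on the log2 scale, AK148509 was inside with 2.33 and Gm10286 outside with 2.26. Liver was the nearest tissue for 70 of the 80. The list required absence in the other tissues, and probes that no array of a tissue detected had their highest median level in liver (-3.31). The part of this in the count of 70 was not tested. Both probes of the lncRNA gene Gm15848 were raised, with kidney means of 0.97 ± 0.30 and 0.53 ± 0.62 (SD, n = 3), a gene picked after its values were seen.

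Of 22 genes for transport along the nephron, 5 could be named, all through the kidney list, and each had 1 transcript that was kidney-raised. Their median difference from the mean of the 4 tissues was 5.66, against 0.15 over all probes. None of the 5 was well above background on an array of another tissue. Fxyd2 is the gamma subunit of the sodium pump, and NR_028499 read 2.13, 2.46 and 3.07 in kidney and -3.22 or less elsewhere, at least 14.3-fold apart (largest adjusted p = 4.25e-09, limma). Slc5a12, a sodium-coupled lactate transporter of the proximal tubule, had a transcript that read 1.41, 1.52 and 2.56, at least 8.68-fold above each tissue (largest adjusted p = 5e-08, limma).

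The lncRNA transcripts of the 3 other transport genes had lower kidney levels than those of Fxyd2 and Slc5a12. Calb1 encodes a calcium-binding protein of the distal tubule, and its transcript read 1.01, 0.98 and 0.13 in kidney. Car12 encodes a membrane-bound carbonic anhydrase, and its transcript read 0.25, 0.80 and -0.04. Aqp3 encodes a basolateral water channel of the collecting duct, and its transcript read 0.26, -0.42 and -0.59. Their kidney arrays lay above all others, and the bounds were at least 3.98-fold, at least 3.08-fold and at least 2.06-fold. Under the normexp alternative none of the 5 but Fxyd2 kept its call, with differences from the nearest tissue of 1.98 for Slc5a12, 1.32 for Calb1, 0.94 for Car12 and 0.56 for Aqp3.

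Of 10 tubule enzymes and related proteins 7 could be named, and transcripts of 6 were kidney-raised, with a list median of 4.87 against 0.15 over all probes. Besides Treh these were Miox, which cleaves myo-inositol, the cytochrome P450 Cyp4b1, the carboxylesterase Ces2b, the efflux transporter Abcg2 and the membrane protein Tmem72. The readings below are those of the lncRNA transcripts that carry these symbols. Miox read -0.12, 0.74 and 0.76 in kidney and -2.60 or less elsewhere, and Ces2b read 0.90, 1.29 and 1.65 against -1.62 or less. Tmem72 read 0.82, 1.80 and 0.52 in kidney, and 2 brain arrays were well above background. Cyp4b1 read 1.08, 0.55 and 0.31, with 2 heart arrays well above background and a heart mean of -2.17 ± 0.17 (SD, n = 3). Abcg2 had a kidney mean of -0.91 ± 0.14 (SD, n = 3), at least 1.30-fold above each tissue. All 5 lost the call under the normexp alternative, where they differed from the nearest tissue by 0.30 (Abcg2) to 1.58 (Tmem72).

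Prodh2, a hydroxyproline dehydrogenase of liver and kidney, was the enzyme not raised. Its transcript ENSMUST00000142514 was detected in all 5 tissues and read 5.15, 5.88 and 5.73 in kidney. The order of means was liver (6.56 ± 0.22), kidney (5.59 ± 0.39), heart (5.11 ± 0.43), brain (4.35 ± 0.17) and testis (3.45 ± 0.14; SD, n = 3 each). Kidney was below liver by 0.98 (adjusted p = 0.00625, limma), and its difference of 0.48 from heart did not pass (adjusted p = 0.261).

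Of 10 kidney regulators and cilium genes 3 could be named, and their lncRNA transcripts were kidney-raised with a median of 4.05. The readings below are those of these transcripts. Pax8, a transcription factor of the nephric lineage, read 0.00, -1.40 and -0.41 in kidney and -3.25 or less elsewhere. Pkd2, which encodes the cilium channel polycystin-2, read 0.73, 0.71 and 0.51, with 2 brain arrays well above background. Evc2, a protein of the cilium base, had a kidney mean of -0.42 ± 0.41 (SD, n = 3). The bounds were at least 1.61-fold, at least 3.84-fold and at least 1.83-fold, and under the normexp alternative all 3 calls were lost, with differences of 0.68, 0.90 and 0.61. No podocyte gene of a list of 4 could be named. Since 14 of the 15 transcripts of these lists come from the kidney list, the counts are set by that choice.

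**Figure D2:**
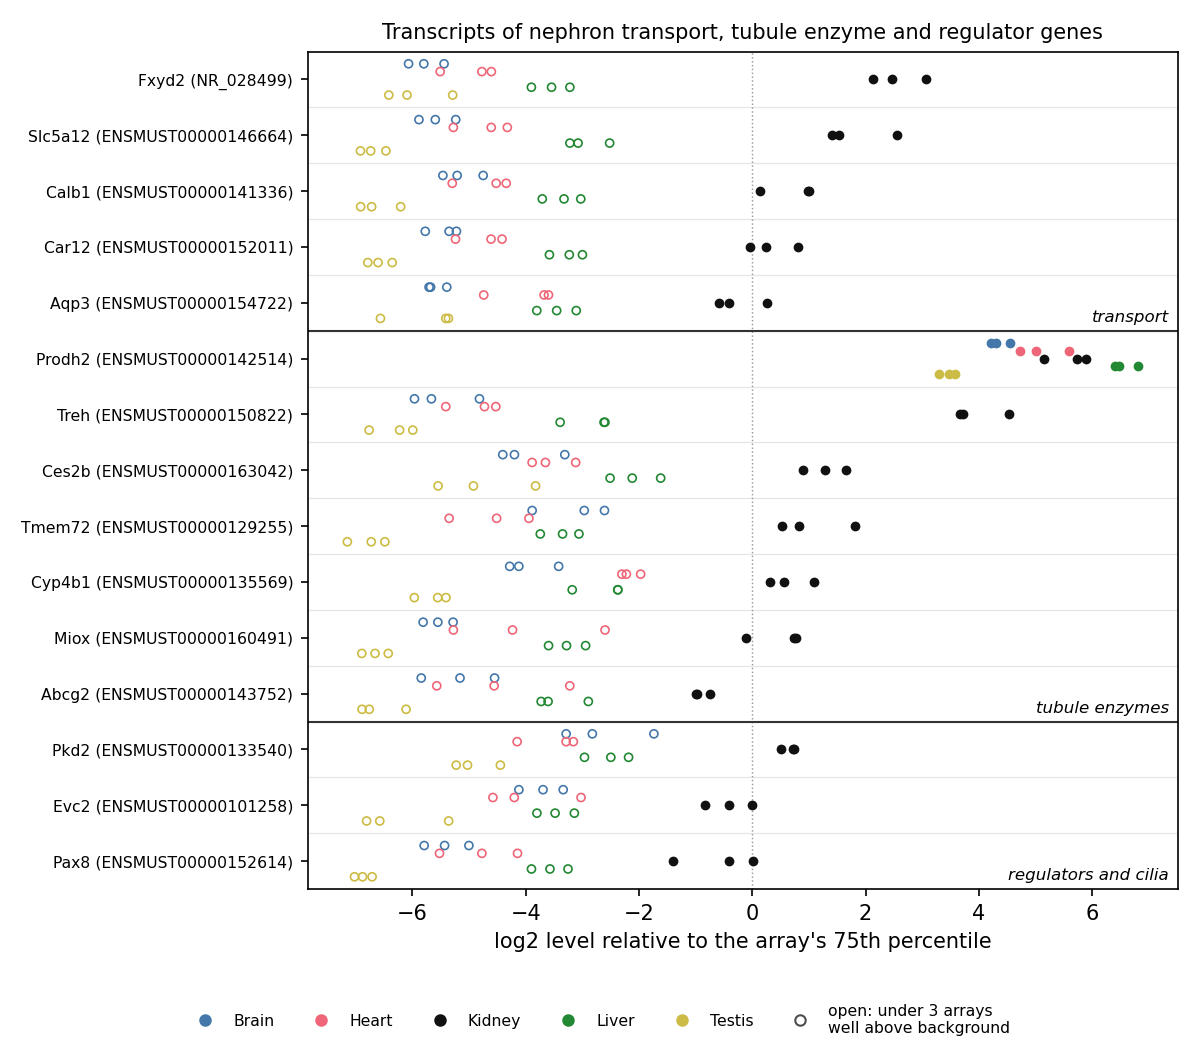
Log2 level (horizontal axis, relative to the 75th percentile of the array) of the named transcripts of nephron transport genes, tubule enzymes, and regulators and cilium genes, from top to bottom. Each point is 1 array, filled where the tissue detected the probe on its 3 arrays. Kidney alone has filled points in every row except that of Prodh2, which is detected in all 5 tissues and highest in liver.

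Most marker transcripts of the other tissues were not detected in kidney. None of 8 neuron and glia transcripts and none of 6 male germ cell transcripts was detected there. Transcripts named through the study's lists for other tissues had to be absent in kidney on these same arrays. For such transcripts a lack of detection is not independent evidence. On the linear scale, in units of the array's 75th percentile, the 8 neuron and glia levels summed to 0.280 to 0.430 on the kidney arrays and to 204.6 to 249.4 on the brain arrays. The 6 germ cell levels summed to 0.286 to 0.453 in kidney and 55.6 to 63.1 in testis. Of 5 cardiac transcripts only that of the calcium pump Atp2a2 was detected in kidney, at -0.45 ± 0.78, while it was at 4.85 ± 0.53 in brain and -0.06 ± 0.02 in heart. Its kidney and heart levels did not differ past the threshold (adjusted p = 0.734, limma). Of 10 hepatocyte transcripts only that of Kng1, which encodes kininogen, was detected, at 5.89 ± 0.32 against 7.53 ± 0.58 in liver (SD, n = 3 each).

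Of 7 blood and immune transcripts 2 were detected in kidney. Hba-ps4, a globin pseudogene, read 10.00, 9.92 and 11.31 in kidney, with 11.56 ± 0.49 in heart and 5.92 ± 0.27 in testis (SD, n = 3). Ptpn22 is a phosphatase known from lymphocytes. Its transcript ENSMUST00000146071, a member of the kidney list, read 2.33, 2.25 and 0.75 in kidney and -2.78 or less elsewhere, at least 8.38-fold apart (largest adjusted p = 4.95e-06, limma). The call was lost under the normexp alternative (2.04). The transcript of Cd6, a T cell surface protein gene, was well above background on no kidney array.

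Kidney replicate 3 stood apart from the other 2 kidney arrays among the raised transcripts. It was more than 1 log2 unit below both for 39 of the 718 (5.43%) and above both for 24 (3.34%), against 0.936% and 1.23% of all probes detected in kidney. Replicate 1 was below both others for 8 and above for 5 of the 718, and replicate 2 for 3 and 1. Gm853, Gm15563 and Ptpn22 were low on replicate 3, while Slc5a12 and Hba-ps4 were high on it, and the part of blood in this was not tested. Without kidney replicate 3 there were again 718 raised transcripts, 685 of them the same.

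Outside the kidney list 3376 transcripts were named, in part through the study's lists for other tissues, whose members had to be absent in kidney. Of the 3376, 4 (0.118%) were kidney-raised. All 4 were detected in every tissue, so their folds are measured on both sides. Their probes are shown as the study lists them, because these are the sequences that carry the measured folds. Their coordinates are on GRCm38, as assigned by comparison, since 151 of 153 listed RefSeq transcripts fell within their RefSeq gene on that build. The transcripts span chr4:98664366-98666137 (plus strand) for Gm12846, chr7:41490351-41491721 (plus) for Gm15470, chr7:105762741-105863650 (plus) for AK136817 and chr2:155563189-155592706 (minus) for Gss.
Gm12846: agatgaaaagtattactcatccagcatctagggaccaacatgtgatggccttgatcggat
Gm15470: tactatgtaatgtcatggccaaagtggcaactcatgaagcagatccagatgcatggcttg
AK136817: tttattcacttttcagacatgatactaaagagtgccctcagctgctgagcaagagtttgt
Gss: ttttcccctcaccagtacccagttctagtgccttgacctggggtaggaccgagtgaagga

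Gm12846 lies in an intron of Patj, a gene of epithelial polarity, in the sense direction. It read 8.52, 8.50 and 6.87 in kidney, and testis was next with 4.03 ± 0.18 (SD, n = 3), 15.3-fold lower (largest adjusted p = 4.66e-07, limma). Gm15470, antisense in an intron of AW146154, read 7.31, 8.08 and 6.37 in kidney and 3.55 ± 0.20 in testis, 13.1-fold lower (largest adjusted p = 1.62e-07). For both, the means fell in the order kidney, testis, liver, heart and brain, and every kidney array lay above all others. RefSeq classes both genes as pseudogenes. Their probes share no stretch longer than 6 bases on either strand. Even so, their levels correlated at 0.995 over the 15 tissue arrays, with Gm12846 higher by 0.27 to 1.21 on each array. Gm12846 and Gm15470 can therefore not be taken as independent kidney-raised transcripts. Whether their probes also bind the mRNA of a parent gene was not tested.

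AK136817 overlaps exons of Dchs1, a protocadherin gene, on the opposite strand. It read 10.54, 10.57 and 9.44 in kidney and 6.31 ± 0.17 (SD, n = 3) in testis, 14.7-fold lower (largest adjusted p = 2.05e-08, limma). Gss encodes glutathione synthetase, and its lncRNA isoform uc008nkz.1 read 9.32, 9.20 and 8.85 in kidney against 6.79 ± 0.27 in liver. At 5.04-fold over liver (adjusted p = 7.81e-06 for the largest of the 4) it was close to the limit. The Gss call was lost without kidney replicate 1 (2.23 on the log2 scale), kidney replicate 2 (2.29), liver replicate 2 (2.20) or liver replicate 3 (2.32).

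The next transcript by difference from the mean of the 4 tissues was Cml1, which was high in liver too. Transcripts were counted as shared where they were detected in kidney and 1 other tissue, lay under 2-fold apart there, and were at least 5-fold above each of the remaining 3 with an adjusted p of 0.05 or less, a rule made after the values were seen. With liver kidney shared 268 transcripts (0.441%), with brain 60 (0.0987%), with heart 56 (0.0921%) and with testis 37 (0.0609%). The count for liver was the highest of the 4 under every alternative in which these counts were made.

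**Figure D3:**
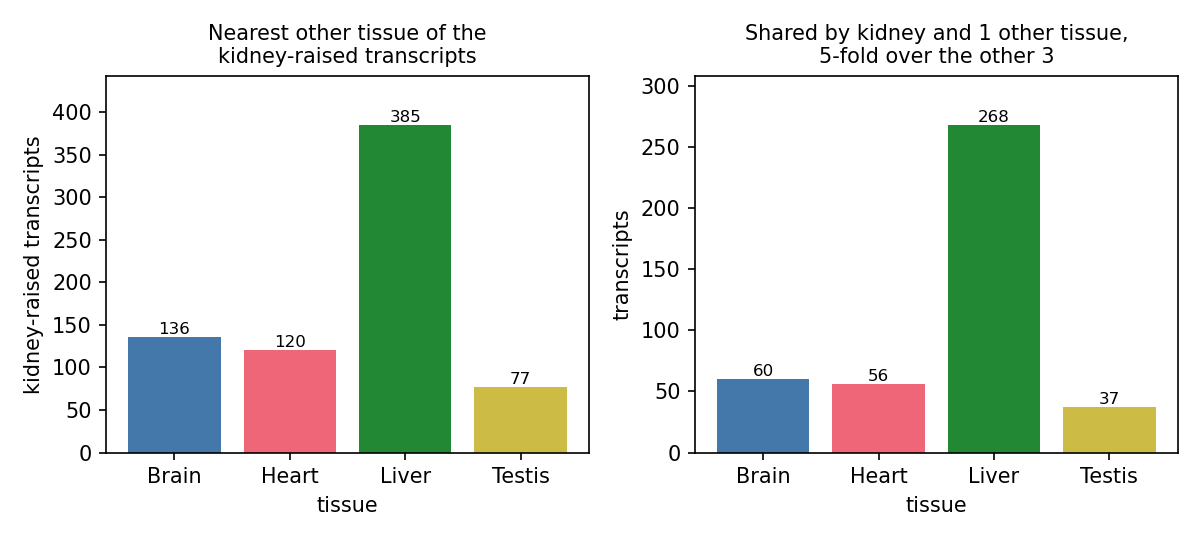
Numbers of transcripts (vertical axes, from 0) by other tissue (horizontal axes). The left bars divide the 718 kidney-raised transcripts by the nearest other tissue and the right bars count transcripts shared by kidney and 1 other tissue, with liver the highest bar in both at 385 and 268.

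Among named transcripts 4 were shared with liver and 3 with brain. Cml1 lies in the gene that RefSeq calls Nat8f1, a member of an N-acetyltransferase family. Its transcript ENSMUST00000172982 read 9.75, 9.79 and 10.04 in kidney and 10.17 ± 0.03 in liver, with brain next at 4.83 ± 0.09 (SD, n = 3). Kidney and liver did not differ past the threshold (-0.31, standard error 0.31, adjusted p = 0.39, limma). Gm15544 was at 4.54 ± 0.44 in kidney and 4.41 ± 0.14 in liver (adjusted p = 0.737). Gm13019 was higher in kidney than in liver by 0.67 (adjusted p = 0.0281) and Gm11920 was lower, with a difference of -0.90 (adjusted p = 0.0122). With brain, AK045573 was at 5.91 ± 0.04 in kidney and 5.89 ± 0.10 (adjusted p = 0.938), and AK012530 and AK136463 were higher in kidney by 0.75 and 0.97.

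Pantr1 (2610017I09Rik) is a lncRNA gene 2653 bases from Pou3f3, a transcription factor gene active in brain and kidney development. The probe of ENSMUST00000181725 read 3.28, 2.89 and 2.92 in kidney and 4.69 ± 0.16 (SD, n = 3) in brain, and it was at -0.59 ± 0.36 in testis and not detected in heart or liver. Kidney was below brain by a difference of -1.66 (adjusted p = 0.00231, limma). The probe of NR_027826 was at 3.25 ± 0.08 in kidney and 4.60 ± 0.18 in brain, but was detected in all 5 tissues. The probes of ENSMUST00000181660 and ENSMUST00000176052 were detected in brain alone, so the isoforms of this gene disagreed in kidney.

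Gm15055, which RefSeq calls Halr1, is a lncRNA gene beside the Hoxa genes, which pattern the body axis. It read 3.21, 3.13 and 2.75 in kidney, above every other array, and heart was next at 0.82 ± 0.72 (SD, n = 3), 4.63-fold lower (adjusted p = 0.000322, limma). The probes of Gm15055, at chr6:52102949-52112532 (plus strand), and of the Pantr1 transcript, at chr1:42648198-42693115 (minus strand), are shown since both transcripts lie near developmental regulators.
Gm15055: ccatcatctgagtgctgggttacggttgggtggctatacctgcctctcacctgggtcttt
2610017I09Rik: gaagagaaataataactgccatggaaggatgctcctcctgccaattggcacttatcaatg

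Acot9, a mitochondrial acyl-CoA thioesterase gene, had a transcript at 6.49, 6.66 and 5.55 in kidney, 2.77-fold above heart. Ldhb encodes the lactate dehydrogenase subunit typical of aerobic tissue. Its transcript was at 5.86 ± 0.58 in kidney and 5.84 ± 0.37 in heart (SD, n = 3) and was not detected in liver. Gm6194 was 4.18-fold above brain and XLOC_025487 2.40-fold above liver, with every kidney array above the other 12 for both.

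A transcript was called kidney-lowered where it was detected in each of the 4 other tissues and at least 5-fold lower in kidney than in each, with an adjusted p of 0.05 or less. This held for 11 transcripts (0.0181% of those tested), and none of the 11 could be named. All 11 had every kidney array below all 12 others, an order found for 1.19% of all probes. Probe ASMM10P011451 read -2.33, -4.61 and -3.66 in kidney, with means of -0.21 in brain, 1.02 in testis, 2.53 in heart and 5.72 in liver. Probe ASMM10P016587 read -2.41, -3.29 and -3.33, with means from 0.18 in liver to 4.45 in testis. Of the 11 only ASMM10P047447 was detected in kidney, at -0.96 ± 0.17 (SD, n = 3). The folds of the other 10 are therefore bounds, and the 5-fold limit was met by their fitted levels. Against the lowest signal well above background, ASMM10P016587, ASMM10P034451 and ASMM10P047447 were 5-fold or more below every tissue. The other 8 had a bound under 5-fold for at least 1 tissue, the smallest being at least 1.56-fold. There were 23 lowered transcripts with the percentile taken over probes detected on all 15 arrays and 0 with the normexp alternative. Of the raised transcripts without a name, ASMM10P016173 read 10.24, 10.82 and 10.51 in kidney and -2.17 or less elsewhere, and ASMM10P045869 read 8.09, 8.20 and 8.48 against -3.05 or less. They were at least 3591-fold and at least 747-fold above each tissue.

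Outside the kidney list, 879 of 3376 named transcripts (26.0%) were higher and 1290 (38.2%) lower in kidney than the mean of the 4 tissues, against 18.8% and 19.0% of all probes, with a median difference of -0.17 against 0.15 over all probes. Part of these names come from the study's lists for other tissues, whose members had to be absent in kidney on these same arrays. The excess of lower transcripts is therefore not independent of how they were named. AK032666 had the largest deficit. Its probe read -5.19, -4.92 and -4.85 in kidney, all below the other 12 arrays and none well above background. It was at 6.10 ± 0.40 in brain, 3.07 ± 0.11 in testis and 1.07 ± 0.74 in heart, and at -2.06 ± 0.81 in liver (SD, n = 3), where 1 array was well above background. The difference from the mean of the 4 tissues was -7.03 (standard error 0.32, adjusted p = 2.48e-10, limma). The study lists AK032666 as intergenic at chr2:163859758-163861994 (minus strand), which falls within the RefSeq span of Rims4, a gene of the presynaptic active zone. Its probe is shown with that of Meg3 NR_003633, at chr12:109545398-109568600 (plus strand), since of the transcripts named here these 2 were detected in brain, heart and testis and had every kidney array below all others.
AK032666: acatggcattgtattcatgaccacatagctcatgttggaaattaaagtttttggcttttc
Meg3 NR_003633: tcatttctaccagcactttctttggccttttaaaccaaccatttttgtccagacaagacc

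Other named transcripts with a large deficit in kidney had their highest level in brain or testis. The study's lists for these tissues also supplied names and required absence in kidney. AK015642, Ttc9 and 4931430N09Rik, the last antisense in an intron of the calcium channel gene Cacna1c, were detected in brain and testis. Gap43, a growth cone protein gene, had a transcript at 7.31 ± 0.07 (SD, n = 3) in brain that was detected in no other tissue. AK148154 was at 5.09 ± 0.24 in brain, and AK141620, in the presynaptic gene Unc13a, at 5.47 ± 0.28. Gm14501, 1700009N14Rik and Gm9766 were detected in testis alone, at 8.02 ± 0.18, 9.23 ± 0.07 and 5.14 ± 0.15. None of these 9 was well above background on a kidney array, and their differences from the mean of the 4 tissues ran from -5.01 (AK015642) to -3.83 (Gap43 and 4931430N09Rik).

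**Figure D4:**
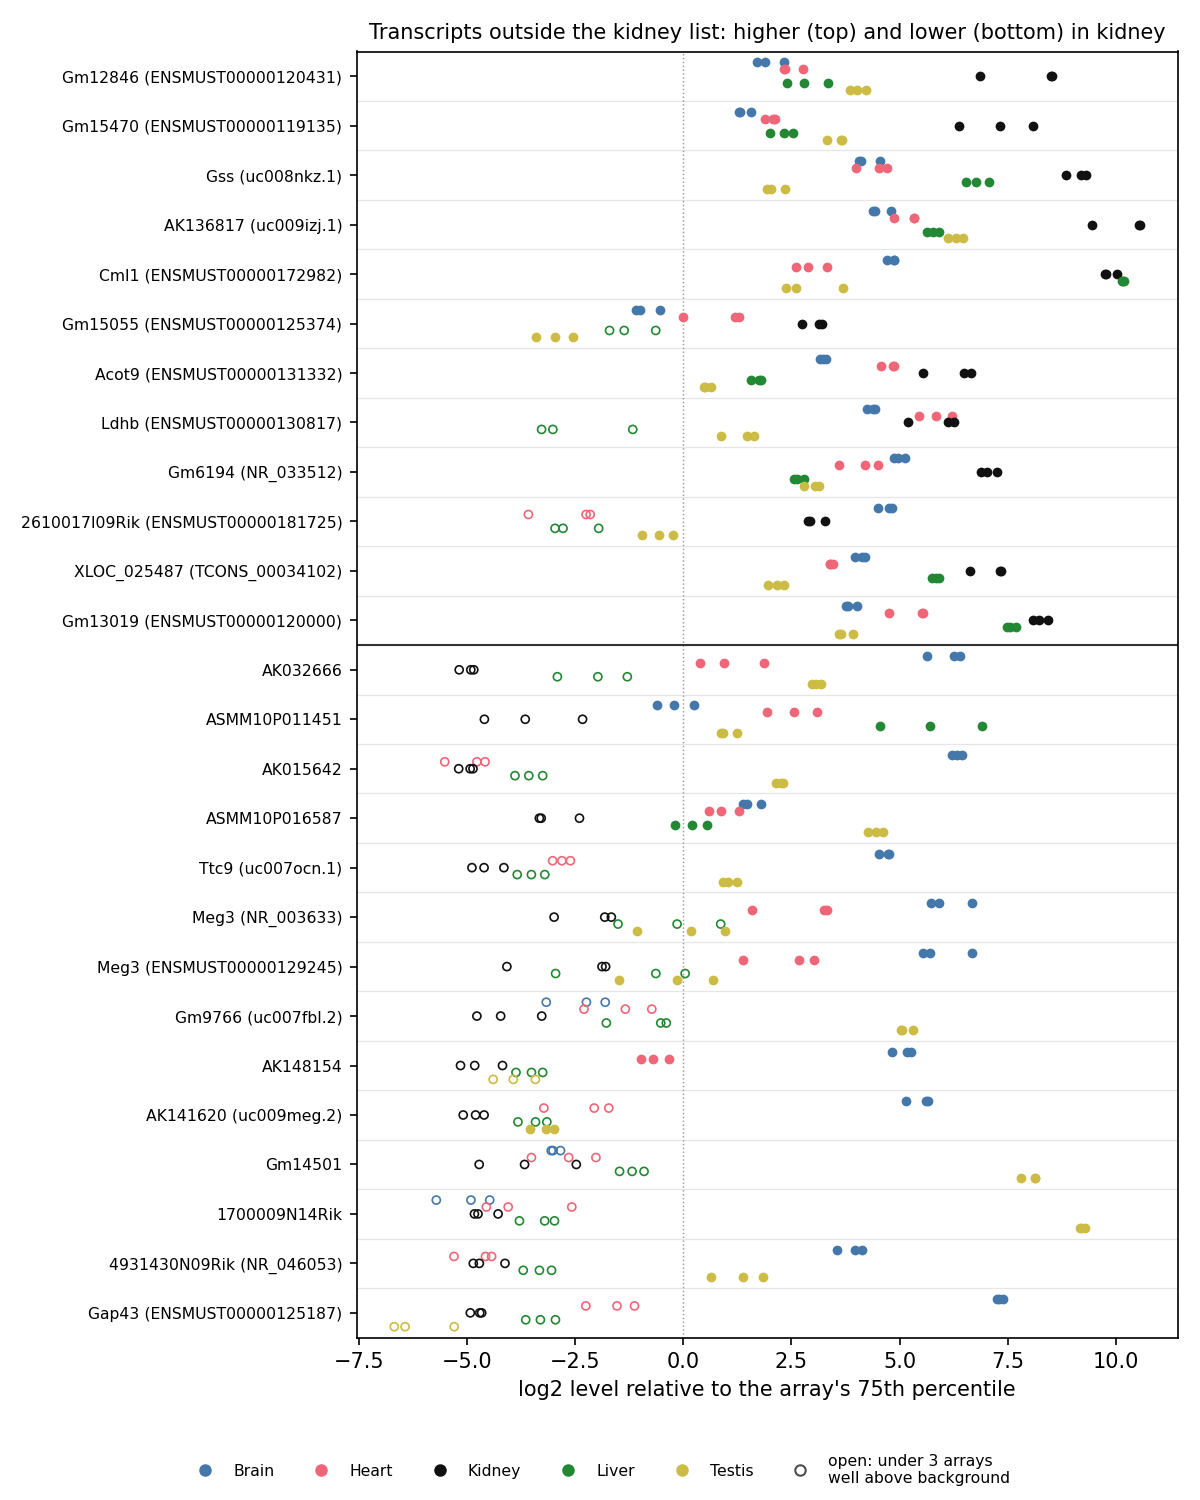
Log2 level (horizontal axis, relative to the 75th percentile of the array) of named transcripts outside the study's kidney list, 12 higher in kidney above the line and 12 lower below it together with the unnamed probes ASMM10P011451 and ASMM10P016587. Each point is 1 array, filled where the tissue detected the probe on its 3 arrays. Kidney points lie to the right of all others for Gm12846, Gm15470, Gss and AK136817, beside liver for Cml1, and to the left of all others for AK032666.

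Imprinted lncRNAs were covered by 18 transcripts of 7 genes, of which 1 was higher, 9 were lower and 8 did not pass against the mean of the 4 tissues, where 18.8% of all probes were higher and 19.0% lower. Their median was -0.90 against 0.15 over all probes. Of the 18, 6 were detected in kidney and 10 were well above background on no kidney array. The study's lists for other tissues required absence in kidney. Lower levels of transcripts named through those lists are therefore not independent evidence. With the percentile taken over probes detected on all 15 arrays 15 were lower and 0 higher, and with the normexp alternative 5 were lower. Meg3, a maternally expressed lncRNA, had 7 probes that disagreed. NR_003633 read -1.82, -2.99 and -1.67 in kidney against 6.11 ± 0.50 in brain and 2.71 ± 0.98 in heart (SD, n = 3), a difference of -4.30 from the mean of the 4 (standard error 0.51, adjusted p = 7.68e-06, limma). ENSMUST00000150851 read 7.02, 6.41 and 6.50 in kidney, within the 6.11 to 7.96 of the other arrays, and its difference of -0.48 did not pass (adjusted p = 0.0708). The probe of uc007pat.2 was at 3.00 ± 0.12 in kidney, below brain (4.38 ± 0.61, adjusted p = 0.00203) and above testis (1.04 ± 0.14, adjusted p = 3.13e-05).

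The other imprinted genes varied as well. Rian, from the same region as Meg3, had 4 probes that were detected in brain alone. The study's brain list required absence in kidney, so this is not independent evidence for a probe named through it. H19, a growth-related imprinted lncRNA, read 8.87, 10.00 and 10.09 in kidney and was at 11.34 ± 0.81 (SD, n = 3) in liver, with a difference of 0.16 from the mean of the 4 tissues (adjusted p = 0.78, limma). Nespos NR_002846 was the transcript that was higher, with kidney arrays at 4.81, 4.98 and 4.65 and a difference of 0.73 (adjusted p = 0.00168), a call lost with the percentile over probes detected on all 15 arrays (0.27).

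Hosts of small nucleolar RNAs and abundant nuclear RNAs were covered by 19 transcripts of 9 genes, 16 of them detected in kidney and none kidney-raised. Against the mean of the 4 tissues 9 were higher, 3 were lower and 7 did not pass, with a median of 0.45 against 0.15 over all probes, of which 18.8% were higher and 19.0% lower. With the percentile taken over probes detected on all 15 arrays the higher calls of Dancr, Rpph1, Neat1 and 3 Gas5 transcripts were lost, and the 3 that remained were those of Malat1. With quantile normalization, without kidney replicate 1 or without kidney replicate 3 there were 5 higher calls. All 3 probes of Malat1, a nuclear speckle RNA, were higher, by 1.99, 1.72 and 1.87. That of ENSMUST00000173523 read 9.95, 8.77 and 9.32 in kidney, and brain (8.66 ± 0.20) and heart (8.62 ± 0.67; SD, n = 3) did not differ from it past the threshold (adjusted p = 0.151 and 0.234, limma). Neat1, the scaffold of paraspeckles, was higher by 1.82 (adjusted p = 0.0319), a call lost with the percentile over probes detected on all 15 arrays (1.36), quantile normalization (1.49) or slide as a block (1.46). The transcripts that were lower, of Snhg3, Snhg11 and Gas5 (ENSMUST00000159706), were well above background on no kidney array.

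Against the mean of the 4 tissues 11430 transcripts (18.8% of those tested) were higher in kidney and 11524 (19.0%) were lower. Higher calls made up 49.8% of these, 26.6% with the percentile taken over probes detected on all 15 arrays, and 75.3% with the normexp alternative. The median difference over all probes was 0.15, and -0.31 with the percentile over probes detected on all 15 arrays. The balance of higher and lower transcripts thus depended on the scaling, and it also moved with the normexp alternative, where the parts of the input signal and of the correction were not tested. No kidney-raised transcript of the gene lists or plots turned lower than the mean of the 4 tissues under any alternative run for it. These transcripts were chosen as at least 5-fold above each of the 4 tissues on these same arrays. Little else could therefore occur.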

How the data were processed

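Total RNA of the tissues was labelled with Cy3 and hybridised to Arraystar mouse lncRNA arrays (per the labels with Trizol extraction, per the study's methods with an RNeasy kit). The authors deposited Agilent Feature Extraction 11.5.1.1 files, whose processed signal is a background-subtracted intensity per spot, not normalized between arrays. The deposited matrix held the same intensity values (largest relative difference 0.000228). Here log2 of the processed signal minus the 75th percentile of each array was taken over 60804 probes, with outlier spots left out, and 15 arrays were fitted with limma 3.58.1 in R 4.3.3. Replicates are biological per the series design, and no source used here ties arrays of different tissues to 1 animal. Named transcripts were AI314278 and Gm853, all in the gene lists, the 12 furthest over the nearest tissue in the kidney list, 12 higher and 12 lower outside it, and 2 unnamed probes in each direction. Members and lists were chosen with earlier results of these data known. Fold changes and p-values of the authors' tables were not used. The scripts were tested on simulated data. Alternatives covered scaling, background correction, input matrix, detection flag, dim probes, fold limit, slide, replicate number, all 24 arrays, the methods' t-test and leaving out each array.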

Additional observations from a re-analysis of the deposited data

How the results depend on the processing

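The count of 718 kidney-raised transcripts was 589 with the 75th percentile over probes detected on all 15 arrays, 736 with quantile normalization, 705 with slide as a block, 721 with all 24 arrays fitted, 720 with the flag for a positive and significant signal, 704 and 665 with the methods' t-test before and after Benjamini-Hochberg adjustment, and 695 to 726 without 1 array. It moved to 1628 with a 2-fold limit and to 353 with normexp on the median signal, an alternative chosen after seeing the data that changed input and correction together. The 11 lowered transcripts became 23 with the percentile over commonly detected probes, 17 with the other flag, 66 with a 2-fold limit, 0 with normexp on the median signal, and 10 to 14 without 1 array. Against the mean of the 4 tissues, higher and lower counts were 6643 and 18313 with the common percentile, 26528 and 8724 with normexp, and 9379 to 11664 and 9663 to 11926 without 1 array. Shared counts with normexp were 170 for liver, 22 for brain, 30 for heart and 15 for testis. That for heart was 35 with the common percentile. Without 1 array they were 261 to 284, 55 to 62, 53 to 71 and 32 to 45 in the same order. Of the 84 named raised transcripts 19 were still called with normexp, 82 with quantile normalization and 78 to 84 without 1 array.

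With normexp the difference from the mean of the 4 tissues turned for Tnni3k (0.0305), Nespos ENSMUST00000150276 (0.0342) and Rian NR_028261 (0.064). With the common percentile the higher calls of Kng1, Prodh2, Dancr, Rpph1, Neat1, Nespos NR_002846 and 3 Gas5 transcripts were lost. The causes were not tested.

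Same-numbered arrays did not all deviate together (correlations with kidney from -0.26 to 0.45). For replicate 1, which was on slide 1 in each tissue, the correlations were all positive (0.04 to 0.45). Since slide and replicate number are mixed, these values cannot show whether the numbers pair the samples. With the replicate block there were 719 raised and 11 lowered transcripts. Slide 1 held 1 array of each tissue, so no test within it was possible. Replicates 2 and 3 of kidney, brain, liver and testis were on slide 2, and those of heart on slide 3. The difference between kidney and heart is thus partly mixed with slide. With slide as a block 65 transcripts were shared with heart, against 56 without it. Normexp on the mean signal was not run, since the files used here hold no mean signal. The t-test gives no value for the mean of the 4 tissues. Of the 718 raised transcripts 109 were detected in all 4 other tissues. The other 609 have a bound for the fold over at least 1 tissue, and 284 of them were detected in no other tissue.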
